A study of Bos taurus with 12 samples.

Results

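The enzymes of glycolysis were followed through 10 genes, HK2, PFKP, ALDOA, TPI1, GAPDH, PGK1, ENO1, ENO3, PKM and LDHA, in RNA sequencing of precursor adipocytes of cattle (Bos taurus), the cells from which fat cells form. The genes were selected by symbol in the deposited count table. That table names 29240 genes, it held all 10, and all 10 were among the 16300 genes that passed the filter on low counts and were tested. The 12 libraries fell into 4 groups of 3, all collected 48 h after transfection. The si group had received an interference reagent and was set against its negative control, si_NC; the labels name no target for it. The OE group had received pcDNA3.1-HGFAC, an expression plasmid carrying HGFAC, and was set against OE_NC, which had received pcDNA3.1-NC. HGFAC encodes the HGF activator, a secreted protease that cleaves the inactive precursor of hepatocyte growth factor. All 4 groups were transfected cells, and untransfected cells were not analysed here. The labels do not say whether the libraries of a group came from separate cultures, so the p-values measure only the spread between these libraries, which may be technical.

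Glycolysis turns glucose into pyruvate in the cytosol and yields ATP and NADH on the way; lactate dehydrogenase then passes the electrons of NADH to pyruvate and makes lactate. The hexokinase and phosphofructokinase steps are its main points of control, while the enzymes of the middle part work near equilibrium and are usually abundant. In fat tissue the pathway supplies glycerol phosphate for the backbone of triglycerides, and in ruminants acetate rather than glucose is the main carbon source for new fatty acids.

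Counts assigned to genes summed to 28944733 to 42703663 per library. HGFAC transcripts, which the counts cannot assign to the plasmid or to the genome, ran at 138 to 189.6 CPM (gene counts scaled to the effective library size) in OE, against 0.273 to 0.526 CPM in OE_NC. HGFAC ran at 0.525 to 0.843 CPM in si and 0.738 to 0.935 CPM in si_NC, and these groups overlapped. The cells carried stromal transcripts, followed over 11 markers and led by COL1A2. Their sum was 20221 to 26391 CPM in si and 14455 to 20474 CPM in si_NC. It was 20791 to 22282 CPM in OE and 15482 to 21434 CPM in OE_NC. Of these markers 9 passed the filter on low counts, and CD34 was at 0 in every si library. Markers of mature fat cells summed to 19.2 to 31.8 CPM over 6 genes. Of 11 skeletal muscle markers, DES dominated a sum of 484 to 750.2 CPM, and the myogenic regulator MYOG was at 0 in every library of si, OE and OE_NC. Immune markers summed to 8.84 to 12.4 CPM over 7 genes. Endothelial markers summed to 53.8 to 83.8 CPM over 6 genes and were led by FLT1, and red blood cell markers reached at most 0.299 CPM over 5 genes. Epithelial markers summed to 2.47 to 3.52 CPM in si and 1.44 to 2.04 CPM in si_NC over 5 genes, and to 2.52 to 3.82 CPM in OE and 2.58 to 3.27 CPM in OE_NC. In bulk samples, fewer cells of a type and less RNA per cell cannot be told apart. Library 3 of si, library 2 of si_NC and library 1 of OE_NC stood apart, differing from the rest of their group by a chi-square per degree of freedom of 12.6 to 20.0. The other pairs within groups differed by 1.96 to 4.87. Mitochondrially encoded genes took 2.28 to 2.52% of counts in si and 1.82 to 1.94% in si_NC, and the part of this difference in the results was not tested.

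Positions are those of the count table, whose genome build is not given in the sources used here, and are stated as chromosome, first and last base and strand. Counts were taken over exons. The genes lay at 11:9741445-9810551 (minus strand) for HK2, 13:45107875-45160816 (minus) for PFKP, 25:26212564-26225472 (minus) for ALDOA, 5:103580104-103583461 (minus) for TPI1, 5:103870384-103874667 (minus) for GAPDH and X:74244892-74267571 (minus) for PGK1. ENO1 lay at 16:44553088-44566771 (plus), ENO3 at 19:26439577-26446869 (minus), PKM at 10:19137913-19164576 (minus) and LDHA at 29:26290887-26302946 (minus). TPI1 and GAPDH were on one strand of chromosome 5 with 286922 bases between them. ENO3 and PFN1 lay head to head on opposite strands with 532 bases between their starts; PFN1 encodes the actin-binding protein profilin. PGK1 was the member of the 10 whose exons overlapped another gene of the table: 281 of its 1808 exon bases were shared with LOC112445011 on the opposite strand. The libraries were stranded per the labels, but the strand setting of the counting is not given in the sources used here, so reads of that pair may have been divided between them. Mammalian genomes carry processed copies of several of these genes, GAPDH above all, and how reads matching several places were counted is not given either.

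The 10 genes differed widely in level. Per kilobase of exon and averaged over the 12 libraries, PKM stood first at 1780.3 normalised CPM per kb, followed by ENO1 at 592, TPI1 at 441, GAPDH at 304 and LDHA at 170.5 CPM per kb. PGK1 followed at 159.7, ALDOA at 104, PFKP at 52.8, ENO3 at 6.90 and HK2 at 5.10 CPM per kb. PKM, the pyruvate kinase of most tissues, thus exceeded ENO1 3.01-fold and HK2 349-fold per kb, and its level in CPM was at percentile 99.9 of the tested genes. Neighbours in this order kept it in 12 of 12 libraries, except LDHA over PGK1 and ENO3 over HK2, each in 8 of 12. LDHA stood above PGK1 in all OE and OE_NC libraries and in 1 library each of si and si_NC. ENO3 stood above HK2 in all OE and OE_NC libraries and in si replicates 1 and 2, and below it in si replicate 3 and in all si_NC libraries. Together the 10 genes held 0.805% ± 0.024 of gene counts in si and 0.800% ± 0.00717 in si_NC, and 0.777% ± 0.017 in OE and 0.836% ± 0.049 in OE_NC (SD, n = 3 each). PKM alone made up 0.483% ± 0.00663 in si, 0.487% ± 0.017 in si_NC, 0.491% ± 0.00433 in OE and 0.494% ± 0.019 in OE_NC. The highest total was 0.892% in OE_NC replicate 1 and the lowest 0.761% in an OE library.

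**Figure D1:**
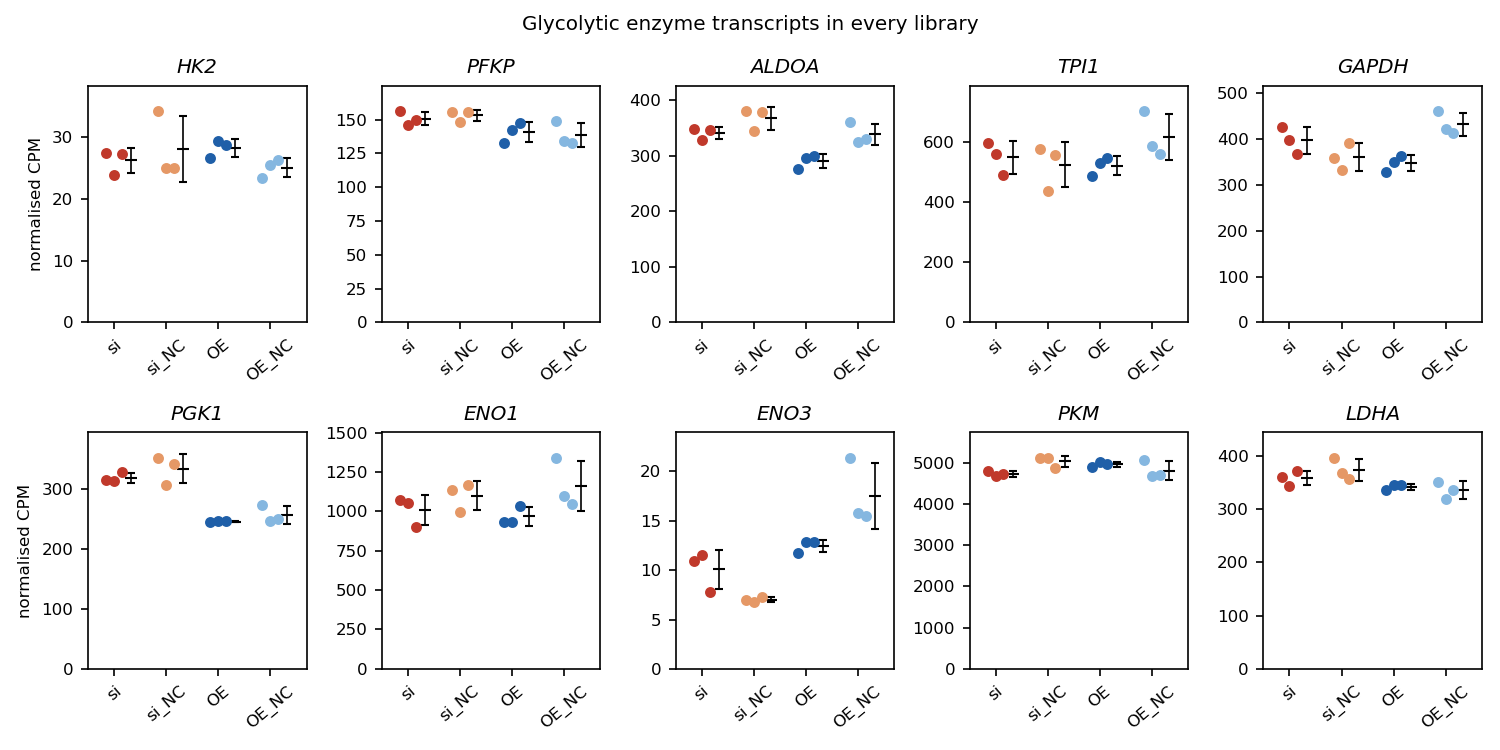
Normalised CPM of the 10 glycolytic enzyme genes in each of the 12 libraries, with a dot per library and the mean ± SD of each group of 3 beside it; the vertical axes start at 0 and differ between genes. PKM stayed between 4674 and 5124 CPM in all libraries, while ENO3 ran from 6.75 to 21.4 CPM and stood highest in OE_NC.

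They also differed in how steady they were. The SD of log2 normalised CPM over the 12 libraries was 0.051 for PKM, which is percentile 0.169 among 9488 genes of at least 5 CPM, and 0.082 for LDHA and 0.087 for PFKP. ALDOA, HK2, GAPDH, ENO1 and TPI1 lay between 0.14 and 0.17, and PGK1 at 0.21. ENO3 stood apart with an SD of 0.53, at percentile 98.2, and a 3.17-fold range between its highest and lowest library.

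Most steps of the pathway can be run by several isoenzymes, and the genes followed here were the leading ones at most of these, as shares of the summed level per kb. PKM made up 99.98% of the pyruvate kinase transcripts over the 12 libraries, PGK1 99.99% of phosphoglycerate kinase, GAPDH 99.7% of its family, ALDOA 98.6% of aldolase and ENO1 98.3% of enolase. PFKP, the platelet type of phosphofructokinase, held 63.0%, against 29.4% for the liver type PFKL and 7.64% for the muscle type PFKM. At the first and last steps the leading form was another gene. HK1, the hexokinase of most tissues, held 83.6% of hexokinase transcripts and HK2, an insulin-responsive form of muscle and fat, 15.5%. LDHB, the heart type of lactate dehydrogenase, held 60.4% and LDHA, the muscle type, 39.5%. Phosphoglycerate mutase was almost wholly PGAM1 at 99.9%.

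**Figure D2:**
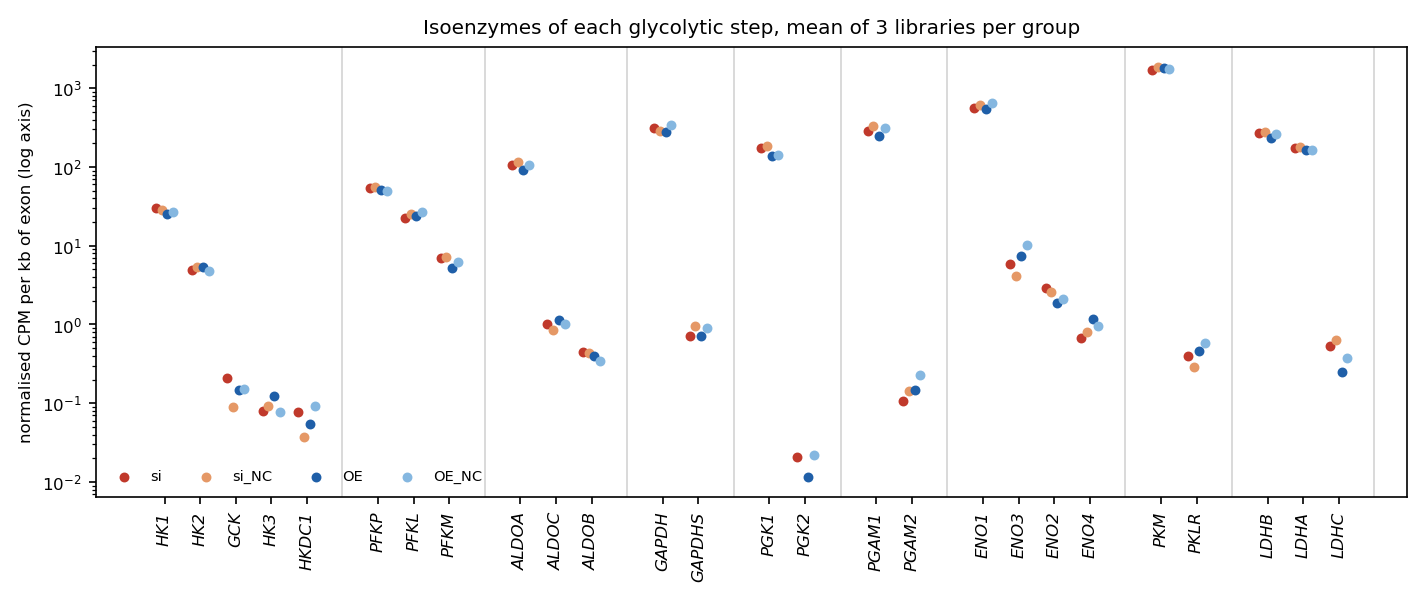
Mean normalised CPM per kb of exon, on a log axis, for every isoenzyme of 9 glycolytic steps in the 4 groups (n = 3 each); within a step, genes run from the highest to the lowest mean, grey lines part the steps, and a group with 0 counts is not drawn. HK1 stands above HK2 and LDHB above LDHA, while PKM, ENO1, GAPDH, PGK1 and ALDOA stand far above their isoenzymes.

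In the interference experiment, no glycolytic enzyme passed the test. By edgeR's quasi-likelihood test with Benjamini-Hochberg adjustment over all 16300 genes, 0 of the 10 were called between si and si_NC. The share over all tested genes was 2.54% (0.92% higher and 1.62% lower). By edgeR 1 had an unadjusted p under 0.05 (18.9% of all). The Wald test of DESeq2 called 1, and limma on deposited RPKM 0. DESeq2 also called more genes than edgeR over the whole table, as counted in the closing section on processing. The median log2 change of the 10 was −0.063, beside 0.025 over all tested genes. In 2 of the 10 the groups did not overlap, against 20.8% of all genes. The gene behind the single unadjusted p and the DESeq2 call was ENO3, the enolase of skeletal muscle.

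ENO3 had 10.9, 11.5 and 7.78 CPM in si and 6.97, 6.75 and 7.24 CPM in si_NC. All 3 si libraries lay above the si_NC libraries, 2 of them clearly and si replicate 3 by a small margin. The log2 change was 0.53 ± 0.15 (SE; 95% interval 0.20 to 0.86; edgeR adjusted p = 0.0804). It was 0.51 with an adjusted p of 0.0274 by DESeq2, 0.68 without si replicate 3 (edgeR adjusted p = 0.0142) and 0.65 without si replicate 3 and si_NC replicate 2 (edgeR adjusted p = 0.0204). Over the 6 refits without 1 library it ran from 0.41 to 0.68, and only the refit without si replicate 3 was called. The gene was not called with the exon length trend removed (0.46, edgeR adjusted p = 0.0554). Library totals in place of TMM (0.61, edgeR adjusted p = 0.0503) and a replicate block (0.52, edgeR adjusted p = 0.0841) gave no call either. These values rest on 192 to 503 counts of ENO3 per library. ENO1, the enolase of most tissues, had 1072, 1053 and 898 CPM in si and 1136, 993 and 1169 CPM in si_NC, which overlap (log2 −0.13 ± 0.10; edgeR adjusted p = 0.533). The ENO3 share of enolase transcripts per kb was 1.02% ± 0.117 in si and 0.661% ± 0.0380 in si_NC (SD, n = 3 each); shares are given as a description, with no test.

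PKM was the other gene whose groups did not overlap. It had 4808, 4674 and 4727 CPM in si and 5117, 5124 and 4888 CPM in si_NC. Every si library lay below every si_NC library, by a small distance for so abundant a transcript (log2 −0.090 ± 0.057; edgeR adjusted p = 0.421). GAPDH, which oxidises glyceraldehyde phosphate and makes NADH, had 427, 398 and 367 CPM in si and 358, 332 and 392.1 CPM in si_NC. The groups overlapped, and the log2 change of 0.14 ± 0.080 had an edgeR adjusted p of 0.371.

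None of the remaining genes passed the test in this experiment. TPI1, which interconverts the triose phosphates, had 597, 563 and 491 CPM in si and 578, 439 and 558 CPM in si_NC. Its lowest values in both groups were si replicate 3 and si_NC replicate 2. HK2 had 27.5, 23.9 and 27.3 CPM in si and 34.2, 24.9 and 25.0 CPM in si_NC, where si_NC replicate 1 alone stood high. PFKP ran at 146 to 156 CPM in si and 148 to 156 CPM in si_NC, ALDOA at 329 to 348 CPM in si and 344 to 380.0 CPM in si_NC, PGK1 at 313 to 328 CPM in si and 307 to 352 CPM in si_NC, and LDHA at 344 to 371 CPM in si and 356 to 396 CPM in si_NC, all overlapping. Log2 changes of HK2, PFKP, ALDOA, TPI1, PGK1 and LDHA ran from −0.11 for ALDOA to 0.068 for TPI1, with edgeR adjusted p-values from 0.422 to 0.893. The 95% interval for TPI1 was −0.17 to 0.30 and for PFKP −0.17 to 0.12.

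**Figure D3:**
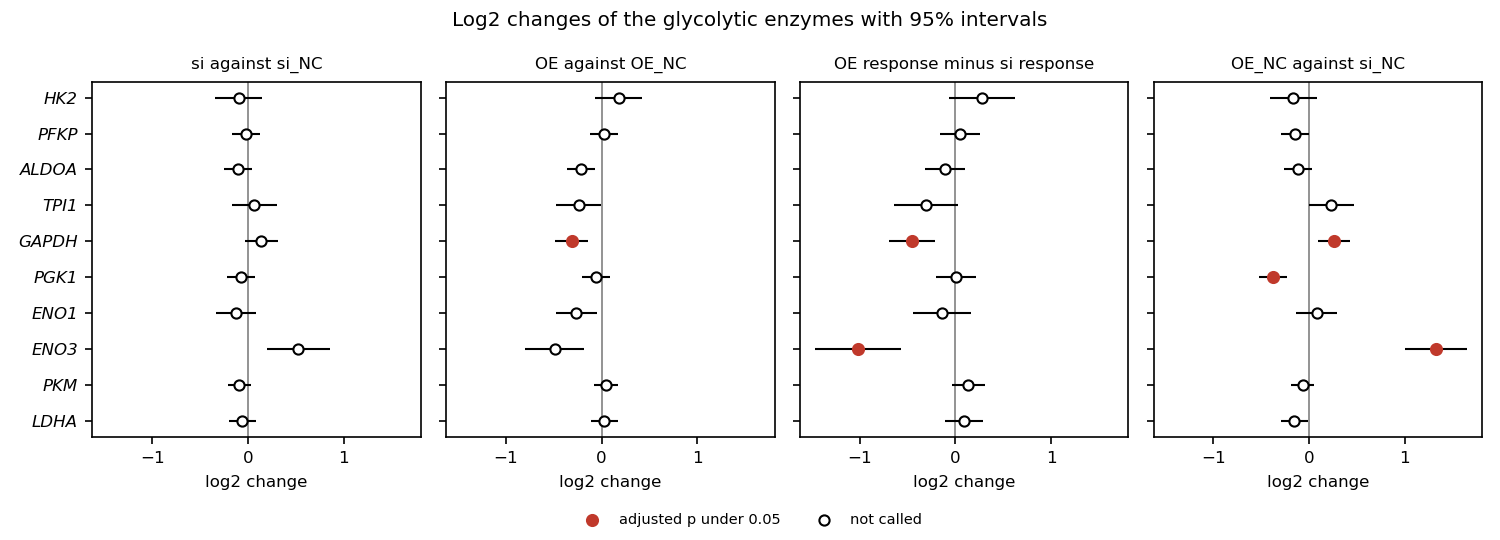
Log2 change with 95% interval of each glycolytic enzyme gene in 4 comparisons, from an edgeR fit of all 12 libraries; filled red dots have an adjusted p under 0.05 and open dots do not. No dot is filled for si against si_NC, GAPDH for OE against OE_NC, GAPDH and ENO3 for the difference of the responses, and GAPDH, PGK1 and ENO3 for the controls.

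With the HGFAC plasmid, 6 of the 10 transcripts, most of them from the middle of the pathway, were lower in every library than with the control plasmid, and 1 of these passed the test. GAPDH fell by 19.6% relative to OE_NC. It was the 1 gene of the 10 called by edgeR, against 4.47% of all tested genes (2.22% higher and 2.25% lower). The Wald test of DESeq2 called 3 (GAPDH, ENO3 and ALDOA) and limma on deposited RPKM 2 (GAPDH and ALDOA). DESeq2 also called more genes than edgeR over the whole table, as counted in the closing section on processing. No share over all genes is given here for limma. The unadjusted p was under 0.05 for 5 of the 10 (GAPDH, ENO3, ALDOA, ENO1 and TPI1, all lower in OE), against 22.9% of all genes. The groups did not overlap for 7 of the 10, against 33.3% of all genes in either direction: ALDOA, TPI1, GAPDH, PGK1, ENO1 and ENO3 were lower in every OE library, and HK2 was higher. The margin was narrow for PGK1 (highest OE library 246.2 CPM, lowest OE_NC library 247.3 CPM) and ENO1 (1036 and 1047 CPM). Changes without OE_NC replicate 1 and with the exon length trend removed are given below. The median log2 change of the 10 was −0.14, beside −0.0046 over all tested genes. Mitochondrially encoded genes took 1.51 to 1.58% of counts in OE and 1.96 to 2.07% in OE_NC, and the part of this difference in the results was not tested.

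GAPDH had 329, 350.0 and 363 CPM in OE and 460.5, 422 and 413 CPM in OE_NC. The highest OE library lay below the lowest OE_NC library, and OE_NC replicate 1 was the highest of all. The log2 change was −0.31 ± 0.080 (SE; 95% interval −0.49 to −0.14; edgeR adjusted p = 0.0416). The call was lost on leaving out OE replicate 1, 2 or 3 or OE_NC replicate 1 or 2, where the log2 change was −0.29, −0.33, −0.34, −0.28 and −0.34, and kept without OE_NC replicate 3 at −0.37. It was also lost when the trend on exon length was removed (log2 −0.12; edgeR adjusted p = 0.281).

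ALDOA, which splits fructose bisphosphate into the triose phosphates, had 277, 296 and 300.2 CPM in OE and 360.5, 325 and 330.2 CPM in OE_NC. Every OE library lay below every OE_NC library. The log2 change was −0.22 ± 0.069, with an adjusted p of 0.0761 by edgeR and 0.0243 by DESeq2. Limma on log2(RPKM + 1), which used no TMM scaling, gave an adjusted p of 0.033. With library totals in place of TMM, edgeR gave a larger change of −0.27 (edgeR adjusted p = 0.0319). Without OE_NC replicate 1 the log2 change was −0.18 (edgeR adjusted p = 0.211). TPI1 had 486, 532 and 549 CPM in OE and 703, 586 and 562 CPM in OE_NC (log2 −0.24 ± 0.11; edgeR adjusted p = 0.209). Here OE_NC replicate 1 stood far above the other libraries, and without it the log2 change was −0.15.

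ENO1, which makes phosphoenolpyruvate, had 933, 933 and 1036 CPM in OE and 1339.6, 1096 and 1047 CPM in OE_NC (log2 −0.26 ± 0.10; edgeR adjusted p = 0.131). The gap between the groups was narrow apart from OE_NC replicate 1, without which the log2 change was −0.16. ENO3 had 11.8, 12.8 and 12.8 CPM in OE and 21.4, 15.8 and 15.5 CPM in OE_NC. Every OE library lay below every OE_NC library, with OE_NC replicate 1 the highest. The log2 change was −0.49 ± 0.15 (95% interval −0.80 to −0.18), with an adjusted p of 0.0651 by edgeR and 0.0237 by DESeq2, and −0.34 without OE_NC replicate 1. The ENO3 share of enolase transcripts per kb was 1.33% ± 0.0751 in OE and 1.55% ± 0.0838 in OE_NC (SD, n = 3 each).

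PGK1, PKM, LDHA and PFKP differed little. PGK1, whose step yields the first ATP, had 245, 246 and 246 CPM in OE and 273, 247 and 249 CPM in OE_NC, and its 3 OE libraries were almost alike (log2 −0.062 ± 0.068; edgeR adjusted p = 0.629). PKM had 4904, 5031 and 4965 CPM in OE and 5076, 4674 and 4696 CPM in OE_NC, which overlap (log2 0.045 ± 0.057; edgeR adjusted p = 0.683). LDHA had 336, 345 and 345 CPM in OE and 352, 319 and 337 CPM in OE_NC, again overlapping (log2 0.027 ± 0.066; edgeR adjusted p = 0.847). PFKP, which commits sugar to glycolysis, ran at 133 to 147 CPM in OE and 133 to 149 CPM in OE_NC (log2 0.022 ± 0.069; edgeR adjusted p = 0.881).

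HK2 was the member whose OE libraries all lay above the OE_NC libraries, at 26.7, 29.4 and 28.7 CPM in OE and 23.3, 25.4 and 26.3 CPM in OE_NC. The separation was small and the test was not passed (log2 0.18 ± 0.11; edgeR adjusted p = 0.378). HK1 had 96.9, 109 and 109 CPM in OE and 116, 111 and 112 CPM in OE_NC, lower in every OE library (log2 −0.11 ± 0.066; edgeR adjusted p = 0.351). HK2 therefore made up 17.4% ± 0.273 of hexokinase transcripts per kb in OE and 14.8% ± 0.987 in OE_NC (SD, n = 3 each), with ranges of 17.2 to 17.7% in OE and 13.7 to 15.5% in OE_NC. The LDHA share of lactate dehydrogenase was 41.3% ± 0.554 in OE and 38.0% ± 1.92 in OE_NC, and the PFKP share of phosphofructokinase 63.5% ± 0.259 in OE and 60.3% ± 1.23 in OE_NC.

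The responses to the plasmid and to interference were compared as a difference of log2 changes, OE response minus si response. It passed the edgeR test for 2 of the 10 genes, against 8.41% of all tested genes (4.29% higher and 4.12% lower); both were lower. The same 2 had an unadjusted p under 0.05, against 24.4% of all genes. For ENO3 the difference was −1.02 ± 0.21 (SE; 95% interval −1.47 to −0.57; edgeR adjusted p = 0.0106), from a change of −0.49 with the plasmid and 0.53 with interference. It stayed called in each of the 12 refits that left out 1 library, at −1.18 to −0.87, and under the 10 other settings run. For GAPDH the difference was −0.45 ± 0.11 (edgeR adjusted p = 0.0251), from −0.31 and 0.14. The GAPDH call was lost without OE replicate 1 (−0.42), OE replicate 2 (−0.46), si replicate 1 (−0.40) or 2 (−0.46), or si_NC replicate 1 (−0.45), as well as with the exon length trend removed (−0.18). The other 8 genes had differences between −0.31 for TPI1 and 0.27 for HK2, with edgeR adjusted p-values of 0.245 or more. The median over the 10 was −0.052, beside −0.025 over all tested genes. Both called genes also differed between the controls, where ENO3 (1.33) and GAPDH (0.26) were higher in OE_NC than in si_NC. Those controls enter the difference of responses, and their part in it was not tested.

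More genes differed between the negative controls than between either treatment and its control. Between OE_NC and si_NC edgeR called 3 of the 10 glycolytic genes, against 19.7% of all tested genes (9.49% higher and 10.2% lower): ENO3 and GAPDH were higher and PGK1 lower in OE_NC. The unadjusted p was under 0.05 for 4 of the 10, against 34.1% of all genes. The groups did not overlap for 4 of the 10, against 35.8% of all genes, the fourth being LDHA, lower in OE_NC. The median log2 difference of the 10 was −0.093, beside 0.020 over all tested genes. Type of control, transfected material and any difference in handling between the experiments cannot be told apart in this comparison. It shares OE_NC with the plasmid comparison and si_NC with the interference comparison, so a gene that was high or low in one control enters both.

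ENO3 had 21.4, 15.8 and 15.5 CPM in OE_NC and 6.97, 6.75 and 7.24 CPM in si_NC. The groups were far apart. The log2 difference was 1.33 ± 0.15, or 2.51-fold (edgeR adjusted p = 0.000107), and 1.16 to 1.42 on leaving out any 1 of the 6 libraries, with every call kept. ENO3 averaged 12.5 ± 0.615 CPM in OE and 17.5 ± 3.33 in OE_NC, and 10.1 ± 2.00 in si and 6.99 ± 0.248 in si_NC (SD, n = 3 each), so the OE libraries were lower than their own control and higher than every library of the interference experiment. The OE minimum was 11.8 CPM, and the si maximum 11.5 CPM.

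PGK1 had 273, 247 and 249 CPM in OE_NC and 352, 307 and 343 CPM in si_NC. No OE_NC library reached the lowest si_NC library, and the same step separated OE, at 245 to 246 CPM, from si, at 313 to 328 CPM. The log2 difference between the controls was −0.38 ± 0.069 (edgeR adjusted p = 0.00211) and −0.44 to −0.34 in the 6 refits without 1 library, all called. LOC112445011, which shares exon bases with PGK1 on the other strand, was also lower in OE_NC, at 63.9, 56.5 and 63.2 CPM, against 96.5, 79.3 and 91.6 CPM in si_NC (log2 −0.54 ± 0.082; edgeR adjusted p = 0.000729); its part in the PGK1 result was not tested.

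GAPDH had 460.5, 422 and 413 CPM in OE_NC and 358, 332 and 392.1 CPM in si_NC, with every OE_NC library above every si_NC library (log2 0.26 ± 0.080; edgeR adjusted p = 0.0337). This call was less firm. It was lost without OE_NC replicate 1 (0.21), OE_NC replicate 2 (0.28), si_NC replicate 1 (0.25) or si_NC replicate 2 (0.20), without si replicate 3 and si_NC replicate 2 together (0.20), in a fit of only these groups (0.27), and with the exon length trend removed (0.020). LDHA had 352, 319 and 337 CPM in OE_NC and 396, 368 and 356 CPM in si_NC (log2 −0.15 ± 0.066; edgeR adjusted p = 0.112), and was called with the length trend removed (−0.28; edgeR adjusted p = 0.00763). The groups stood close together for it, with 352 CPM the highest in OE_NC and 356 CPM the lowest in si_NC. The other 6 genes had differences from −0.16 for HK2 to 0.23 for TPI1, with edgeR adjusted p-values of 0.151 or more.

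Exon length moved with these differences. Among tested genes of at least 5 CPM, the median log2 change in OE against OE_NC was −0.22 for genes of up to 1000 exon bases, −0.13 for 1000 to 1500 and 0.13 above 5000. Between OE_NC and si_NC the medians ran the other way, at 0.17, 0.068 and −0.13, while in si against si_NC all 6 length classes lay between −0.048 and 0.0045. TPI1 and GAPDH, with 1256 and 1262 exon bases, were the shortest of the 10 and fell in the class with the medians of −0.13 and 0.068. HK2, with 5278 exon bases, was the longest and fell in the class with 0.13 and −0.13. With the length trend of each library removed, OE against OE_NC gave −0.047 for TPI1, −0.12 for GAPDH, −0.15 for ENO1, −0.36 for ENO3 and −0.23 for ALDOA, none of them called. ENO3 in the controls remained at 1.15 (edgeR adjusted p = 6.35e-05) and PGK1 at −0.54 (edgeR adjusted p = 0.000117).

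**Figure D4:**
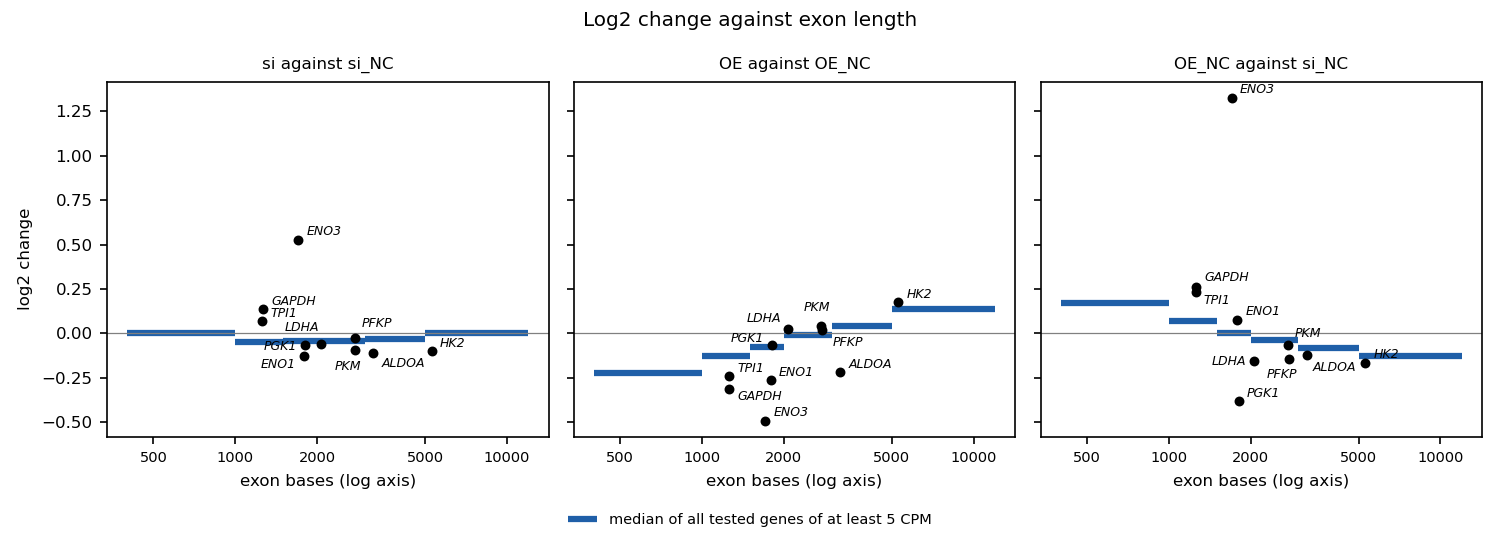
Log2 change of the 10 glycolytic enzyme genes (black dots) against their exon bases on a log axis in 3 comparisons; blue bars give the median of all tested genes of at least 5 CPM in each of 6 length classes. TPI1 and GAPDH, the shortest members, lie below 0 for OE against OE_NC and above 0 for OE_NC against si_NC, where the short classes lie too, while ENO3 and PGK1 in the controls lie away from the bars.

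Patterns over the libraries were also compared between genes. Likeness was measured as the root mean square difference of log2 normalised CPM over the 12 libraries, each gene centred on its own mean, among 9487 other genes of at least 5 CPM. The nearest gene to ENO3 was TMEM126B, at 0.146 log2 units, which encodes a mitochondrial protein needed to assemble respiratory complex I; the nearest glycolytic gene was TPI1, ranked 1182. TMEM126B had 16.8, 15.4 and 13.5 CPM in OE_NC and 6.87, 7.14 and 8.18 CPM in si_NC (log2 1.04 ± 0.16; edgeR adjusted p = 0.000757), with 12.1, 11.4 and 13.4 CPM in OE and 10.3, 10.4 and 6.49 CPM in si. Like ENO3, it was highest in OE_NC, and si replicate 3 was low. It remained the nearest gene without si replicate 3 and si_NC replicate 2. That check kept OE_NC replicate 1, where both genes were highest, and the part of this library in the likeness was not tested. GAPDH was nearest to RER1, which returns proteins to the endoplasmic reticulum, and TPI1 to PPIA, the cyclophilin A gene. TPI1 ranked 39 in the list of GAPDH, and GAPDH 67 in that of TPI1. LDHA and PFKP were close to each other, at 0.052 log2 units, PFKP ranking 12 in the list of LDHA and LDHA 6 in that of PFKP. LDHA and PFKP deviated from their own means by only 0.078 and 0.083 log2 units. The measure is not scaled by spread, so genes that vary little lie near each other whatever their pattern. The nearest genes of the others were LIG3 for HK2, AFG3L2 for PFKP, ESRRA for ALDOA, RRM1 for PGK1, RPL3 for ENO1, TMED10 for PKM and DNM2 for LDHA. Of the 10 nearest genes, 2 (RER1 and TMEM126B) were the same without si replicate 3 and si_NC replicate 2.

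The neighbour of ENO3 on the chromosome, PFN1, also differed between groups. PFN1 had 211, 169 and 166 CPM in OE and 395, 313 and 312 CPM in OE_NC. Every OE library lay far below every OE_NC library, and the log2 change was −0.90 ± 0.12 (edgeR adjusted p = 0.00243). In si it had 320.2, 306 and 265 CPM, against 227, 207 and 245 CPM in si_NC (log2 0.39 ± 0.11; edgeR adjusted p = 0.0814), and between the controls the log2 difference was 0.59 (edgeR adjusted p = 0.00327). The difference of the responses was −1.29 ± 0.16 (edgeR adjusted p = 0.00107). These comparisons share control libraries. The exons of ENO3 and PFN1 do not overlap in the count table, and the part of reads crossing the 532 bases between them was not tested.

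Because ENO3 is a muscle isoform, muscle markers are given beside it. ACTA1, skeletal muscle actin, had 9.26, 9.23 and 10.6 CPM in OE and 15.3, 17.3 and 13.8 CPM in OE_NC (log2 −0.68 ± 0.14; edgeR adjusted p = 0.0208). It had 13.8, 15.3 and 10.9 CPM in si and 9.42, 7.81 and 10.1 CPM in si_NC (log2 0.54 ± 0.14; edgeR adjusted p = 0.052). The ACTA1 difference of responses was −1.22 (edgeR adjusted p = 0.00348). The ACTA1 call in the plasmid comparison was lost without OE replicate 1, 2 or 3 or OE_NC replicate 1 or 2, with log2 changes of −0.77 to −0.60. DES, the intermediate filament protein desmin, rose with the plasmid, at 713, 733 and 702 CPM in OE and 501, 531 and 575 CPM in OE_NC (log2 0.42 ± 0.10; edgeR adjusted p = 0.0399; not called without any 1 of OE replicates 1 to 3 or OE_NC replicates 1 and 2, at 0.36 to 0.45, nor with library totals or limma). TNNT3, a muscle troponin, had 3.33, 2.79 and 2.34 CPM in OE and 1.58, 2.05 and 2.21 CPM in OE_NC (log2 0.53 ± 0.27; edgeR adjusted p = 0.251), higher in every OE library. Of 6 tested muscle markers edgeR thus called 1 higher and 1 lower in OE, against 2.22% and 2.25% of all tested genes. The median log2 change of the 6 was −0.051 in OE and 0.11 in si. In si edgeR called 0 of them, DESeq2 1 and limma 0. By edgeR 3 had an unadjusted p under 0.05 in si, against 18.9% of all tested genes. Over the 11 muscle markers the summed level was 720.1 to 750.2 CPM in OE, 524 to 597 CPM in OE_NC, 484 to 637 CPM in si and 484 to 578 CPM in si_NC. The myogenic regulator MYOG was at 0 in si, OE and OE_NC, and MYOD1 was at 0 in si_NC. Between the controls ACTA1 (0.76) and TNNT3 (2.18) were the muscle markers called, both higher in OE_NC, against 9.49% of all tested genes called higher by edgeR. The part of muscle-type transcripts in the ENO3 result was not tested.

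**Figure D5:**
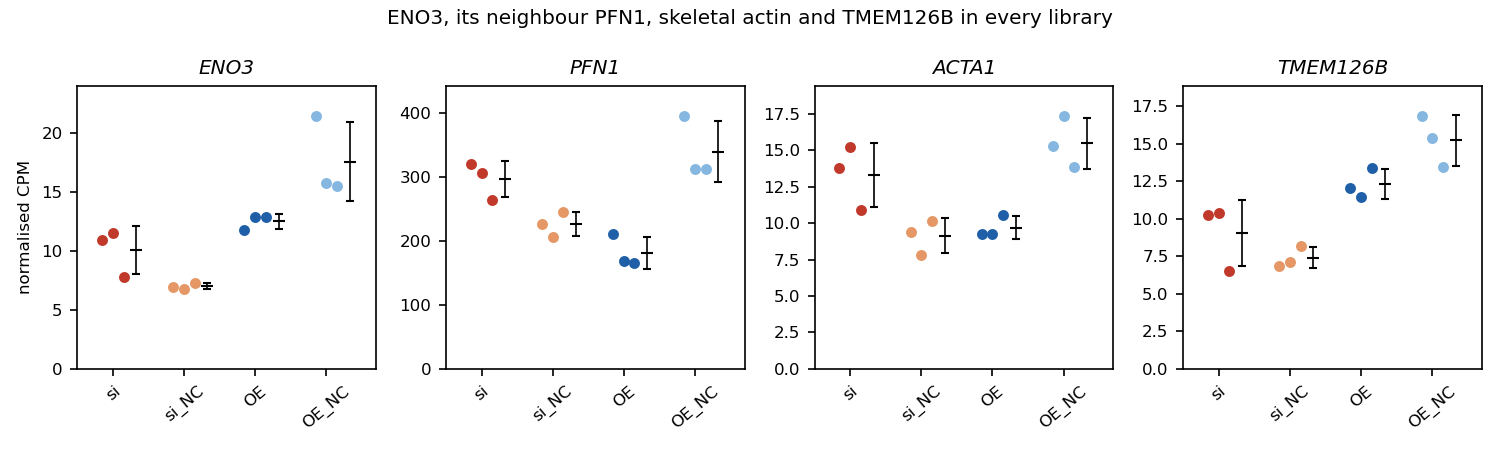
Normalised CPM in each library, with mean ± SD of each group of 3, for ENO3, its chromosomal neighbour PFN1, skeletal muscle actin ACTA1 and the gene of the most similar pattern, TMEM126B; vertical axes start at 0. PFN1 runs at 166 to 211 CPM in OE and at 312 to 395 CPM in OE_NC, and ACTA1 and TMEM126B, like ENO3, are higher in OE_NC than in si_NC.

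GAPDH is often used to normalise quantitative PCR, so its spread was set beside 15 other reference genes. Over the 12 libraries its log2 SD of 0.153 ranked sixth of 16; SDHA was the steadiest at 0.0686, ACTB had 0.193 and TFRC the widest at 0.424. Between the 4 group means GAPDH spanned 1.24-fold, SDHA 1.06-fold and ACTB 1.37-fold. GAPDH per kb was 14.6 to 15.9% of PKM per kb in OE and 19.2 to 19.7% in OE_NC, and 16.9 to 19.3% in si and 14.1 to 17.5% in si_NC. Of the 15 others edgeR called 0 in si against si_NC, DESeq2 1 and limma 0. By edgeR 2 had an unadjusted p under 0.05 there, against 18.9% of all tested genes. In OE against OE_NC edgeR called 1, against 4.47% of all tested genes. This was RPS9, which fell (log2 −0.52 ± 0.10, edgeR adjusted p = 0.0195). RPS9 shares 437 of its 793 exon bases with a gene on the other strand, and its call was lost without any 1 of OE replicates 1 to 3 or OE_NC replicates 1 and 2, at −0.58 to −0.44, and with the length trend removed. Between the controls 7 of the 15 were called, 4 higher and 3 lower in OE_NC, against 9.49% of all tested genes called higher and 10.2% lower. ACTB, the most abundant, had 2054 ± 71.6 CPM in OE_NC and 2424 ± 29.9 CPM in si_NC (SD, n = 3 each; log2 −0.24 ± 0.055; edgeR adjusted p = 0.00839), a call that was lost with library totals in place of TMM, with limma and in a fit of only these groups.

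Other genes of glycolysis gave no edgeR call in either experiment. Of 19 further isoenzymes and steps 17 were tested, and edgeR called 0 in si against si_NC and 0 in OE against OE_NC. By edgeR 2 had an unadjusted p under 0.05 in si and 4 in OE, against 18.9% and 22.9% of all tested genes. The median log2 changes of the 17 were −0.045 in si and −0.17 in OE. The Wald test of DESeq2 and limma each called 0 in si and 1 in OE. PGAM1, the phosphoglycerate mutase and the most abundant of them, had 396, 436 and 441 CPM in OE and 603, 509 and 487 CPM in OE_NC (log2 −0.33 ± 0.11; edgeR adjusted p = 0.0896). GPI, which turns glucose phosphate into fructose phosphate, had 60.3, 60.9 and 63.5 CPM in OE and 78.7, 70.4 and 70.8 CPM in OE_NC (log2 −0.25 ± 0.070; edgeR adjusted p = 0.0555). Both were lower in every OE library. Without OE_NC replicate 1 the log2 change was −0.24 for PGAM1 and −0.21 for GPI. Between the controls GPI (−0.34) and the ADP-dependent glucokinase ADPGK (−0.49) were lower in OE_NC, and PKLR, the liver and red cell pyruvate kinase, was higher (1.03) at a level of only 1.80 CPM in OE_NC and 0.882 CPM in si_NC. In that comparison edgeR called 9.49% of all tested genes higher and 10.2% lower. The PKLR call was lost without OE_NC replicate 3, si_NC replicate 1 or si_NC replicate 3, at 0.90 to 1.24.

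Steps that feed or drain the pathway were examined by lists. Of 6 tested genes of the pentose phosphate pathway, which takes glucose phosphate to NADPH and ribose, 1 fell with the plasmid and 0 rose, against 2.25% and 2.22% of all tested genes. TKT, transketolase, had 115, 116 and 114 CPM in OE and 137, 139 and 131 CPM in OE_NC (log2 −0.24 ± 0.062; edgeR adjusted p = 0.0431). Every OE library lay below every OE_NC library. The call was lost without any 1 of OE replicates 1 to 3 or OE_NC replicates 1 and 2, at −0.28 to −0.23. It was also lost with the length trend removed and with no filter on low counts, and TKT shares 473 of 2062 exon bases with a gene on the other strand. In si the list had 0 edgeR calls, 1 by DESeq2 and 0 by limma. By edgeR 1 of the 6 had an unadjusted p under 0.05 in si, against 18.9% of all tested genes. TKT had 186, 173 and 186 CPM in si and 169, 175 and 167 CPM in si_NC (log2 0.10 ± 0.061, edgeR adjusted p = 0.418). The TKT difference of responses was −0.34 (edgeR adjusted p = 0.0296). PGD (−0.42) and TKT (−0.32) were lower in OE_NC than in si_NC by edgeR, which called 10.2% of all tested genes lower there.

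Among 12 tested regulators of glycolytic genes, 2 rose with the plasmid and 0 fell by edgeR, against 2.22% and 2.25% of all tested genes. DESeq2 called 2 and limma 1. Those percentages are for edgeR only, and DESeq2 called more genes than edgeR over the whole table. HIF1A, the oxygen-regulated activator of many glycolytic genes, had 104, 114 and 106 CPM in OE and 73.4, 82.0 and 84.0 CPM in OE_NC (log2 0.44 ± 0.084; edgeR adjusted p = 0.0166). TXNIP, an inhibitor of glucose uptake, had 46.0, 47.0 and 49.6 CPM in OE and 29.02, 34.4 and 34.2 CPM in OE_NC (log2 0.55 ± 0.12; edgeR adjusted p = 0.0284). Both were higher in every OE library. HIF1A lost its call without OE replicate 2 or 3 or OE_NC replicate 1 or 2 (0.37 to 0.46), and TXNIP without any 1 of OE replicates 1 to 3 or OE_NC replicates 1 and 2 (0.46 to 0.58) and by limma. In si the list had 0 edgeR calls, 1 by DESeq2 and 0 by limma. By edgeR 3 of the 12 had an unadjusted p under 0.05 in si, against 18.9% of all tested genes. Between the controls TXNIP was higher (0.48) and the oxygen sensor EGLN1 lower (−0.41) in OE_NC, where edgeR called 9.49% of all tested genes higher and 10.2% lower. TXNIP lost this call between the controls without OE_NC replicate 2, si_NC replicate 1 or si_NC replicate 3, at 0.37 to 0.66.

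In the list of glycogen and glycerol phosphate branches, 2 of 11 tested genes passed in si, 1 higher and 1 lower, against 0.92% and 1.62% of all tested genes. GPD2, the mitochondrial glycerol phosphate dehydrogenase, rose, with 33.1, 36.6 and 36.1 CPM in si and 27.9, 29.8 and 27.2 CPM in si_NC (log2 0.32 ± 0.076; edgeR adjusted p = 0.0398). PGM2, a phosphoglucomutase, fell, with 133, 139.7 and 155 CPM in si and 183, 177 and 168 CPM in si_NC (log2 −0.30 ± 0.072; edgeR adjusted p = 0.0397). The groups were separate for both. GPD2 kept its call without si_NC replicate 2 and lost it without each other library (0.28 to 0.36), and PGM2 lost it without si replicate 1 or 2 or si_NC replicate 1 or 3 (−0.37 to −0.26). Both were also lost in a fit of only these groups and by limma, GPD2 with the length trend removed and with no filter on low counts, and PGM2 with library totals. With the plasmid the list had 0 edgeR calls, 2 by DESeq2 and 0 by limma. By edgeR 4 of the 11 had an unadjusted p under 0.05 with the plasmid, against 22.9% of all tested genes. PGM2 was lower in OE_NC than in si_NC (−0.53), and its difference of responses was 0.55 (edgeR adjusted p = 0.00586), called in every refit without 1 library. PYGL, glycogen phosphorylase and the most abundant of the list, had 218 ± 12.7 CPM in si and 191 ± 2.72 CPM in si_NC, and 180.4 ± 3.08 CPM in OE and 176 ± 5.87 CPM in OE_NC (SD, n = 3 each).

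In the remaining lists edgeR called 0 genes in both experiments. Over all tested genes, 18.9% in si and 22.9% in OE had an unadjusted edgeR p under 0.05. Of 11 tested carriers of glucose and lactate, 0 had such a p in si and 2 in OE. Of 14 genes of pyruvate entry into mitochondria it was 3 and 4. Of 7 switches and side steps it was 0 and 1, and of 3 gluconeogenic genes 1 and 1. The Wald test of DESeq2 called 2 genes of pyruvate entry in OE and 0 in si, and limma 2 in OE and 1 in si. In the other 3 lists both tools called 0. For DESeq2 and limma no shares over all genes are given beside these or the earlier lists. DESeq2 called more genes than edgeR over the whole table in both experiments, as counted in the closing section on processing. SLC2A3, a glucose carrier, had 49.9 ± 3.05 CPM in OE and 48.3 ± 1.56 CPM in OE_NC (SD, n = 3 each). BSG, the chaperone of lactate carriers and the most abundant of that list, had 707 ± 42.5 CPM in OE and 811 ± 60.2 CPM in OE_NC (log2 −0.20 ± 0.074; edgeR adjusted p = 0.131). DLD, the shared subunit of pyruvate dehydrogenase, had 122 ± 2.94 CPM in OE and 122 ± 1.03 CPM in OE_NC. Between the controls edgeR called 9.49% of all tested genes higher in OE_NC and 10.2% lower. In these lists BSG (0.27), MPC2 (0.38), PDHX (0.26), ACYP2 (1.46) and PCK2 (1.15) were called higher in OE_NC, and SLC2A3 (−0.31), PDP1 (−0.37), PDK3 (−0.41) and TIGAR (−0.50) lower. Of these, PDP1 and TIGAR, which shares 2525 of its 5746 exon bases with FGF23 on the other strand, stayed called in all 6 refits without 1 library; the others lost the call in 2 to 5 of them. Of 11 other settings, the call was lost in 7 for PDK3, 5 for MPC2, 4 for SLC2A3, 3 for PDHX, 2 for BSG and 0 for ACYP2 and PCK2. ACYP2 was scarce, at 0.337 CPM in si_NC (6 to 14 counts per library) and 0.930 CPM in OE_NC (22 to 42 counts). Of its 1064 exon bases MPC2 shares 238 with DCAF6 and 199 with LOC107131946, both on the other strand.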

How the data were processed

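RNA of 12 libraries of transfected bovine precursor adipocytes was sequenced from polyadenylated transcripts with a stranded kit, per the labels' protocols. The authors deposited a table of raw counts per gene, with exon coordinates, and a table of RPKM (reads per kilobase of exon, scaled to depth). The submitters' processing notes name fastp 0.23.0, featureCounts and Subread 1.5.1. The sources used here do not give the aligner, genome build, strand setting or treatment of multiply mapped reads. Of all counts, 66.2 to 69.3% of the nonzero values per library were even, so both reads of a pair may have been counted, and halved counts were run as an alternative. The 2 entries that name no gene held 0.0868 to 0.116% of counts and were left out.

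From the deposited counts, edgeR 4.0.16 in R 4.3.3 fitted all 12 libraries in one quasi-likelihood model (TMM scaling; filterByExpr with a minimum count of 10 and a total of 15; 8 residual degrees of freedom). CPM are TMM-normalised. Calls have a Benjamini-Hochberg adjusted p under 0.05 over 16300 genes, and comparisons are si against si_NC, OE against OE_NC, OE_NC against si_NC, and the plasmid response minus the interference response. Alternatives used DESeq2 1.42.0 and limma 3.58.1 (log2 of RPKM plus 1 or 0.1), other scalings and filters, an exon length offset (natural spline, 4 degrees of freedom), a replicate term and fits without single libraries. Tables were handled in Python 3.11.15 with pandas 2.3.3 and SciPy 1.17.1.

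The 10 genes, the lists and the rules were chosen with earlier results of these data known. Text names the 10 genes, detected isoenzymes, up to 4 called genes per pathway list by smallest adjusted p with its most abundant gene, the gene nearest in pattern to each of the 10, genes sharing their exons and the leading marker genes. PFN1, ACTA1, TNNT3, SDHA and the markers at 0 were chosen after their values were seen. At these depths intervals reflect the spread between libraries; shares and levels are descriptions without a test. One listed gene is not reported here.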

Additional observations from a re-analysis of the deposited data

Results flagged for a closer look

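The change with the plasmid and the change with interference differed by a test of the difference itself (edgeR, adjusted p under 0.05) for several genes, given here as OE response minus si response on the log2 scale. Among the glycolytic enzymes these were ENO3 at −1.02 and GAPDH at −0.45, and among other steps of glycolysis GPI at −0.35. TKT of the pentose phosphate pathway had −0.34, and PGM2 had 0.55. Reference genes gave −0.68 for RPS9 and −0.71 for TBP. PFN1, the chromosomal neighbour of ENO3, had −1.29, and the muscle marker ACTA1 had −1.22. Every gene named here was also called by edgeR between the controls, OE_NC against si_NC, which enter this difference. There ENO3 had 1.33, GAPDH 0.26, RPS9 0.32, TBP 0.49, PFN1 0.59 and ACTA1 0.76, opposite in sign to the difference. PGM2, at −0.53, was also opposite, while GPI (−0.34) and TKT (−0.32) had the same sign. The part of the control difference in these results was not tested. ENO3, PGM2, RPS9, PFN1 and ACTA1 stayed called in all 12 refits without 1 library. GAPDH lost the call in 5 of them (−0.52 to −0.40), GPI in 10 (−0.39 to −0.31), TBP in 6 (−0.83 to −0.60) and TKT in 7 (−0.38 to −0.32). With the exon length trend removed, GAPDH, GPI, RPS9 and TKT were not called.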

How the results depend on the processing

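Over 770 values of 40 results under 24 settings, 670 kept their direction and side of the threshold, and 57 changed sign, all of them values that were not called. Counts of called genes moved more than the glycolytic values did, and the cause was not tested. In si against si_NC (414 genes, 0 of the 10), DESeq2 called 1125 and 1, the fit without a filter 1208 and 1, the exon length offset 1093, only the groups compared 8, and leaving out si replicate 3 and si_NC replicate 2 together 1119 and 1; leaving out 1 library gave 56 (without si_NC replicate 1) to 1083 (without si_NC replicate 2) genes and 0 to 1 of the 10. In OE against OE_NC (728 genes, 1 of the 10), DESeq2 called 1541 and 3, no filter 1679 and 3, only the groups compared 1621 and 2, and 2325 and 5 were called with both those libraries left out. The 5 CPM filter, halved counts and library totals called 3 of the 10, both limma fits 2 and the length offset 0. Over all tested genes, halved counts called 332 higher and 534 lower, library totals 159 and 653, and the length offset 393 and 146. Counts over all genes are not given here for the 5 CPM filter and limma. Leaving out 1 library gave 19 (without OE replicate 2) to 758 (without OE_NC replicate 3) genes and 0 to 2 of the 10. The difference of responses (1371 genes, 2 of the 10) gave 2305 with the same pair left out, 1 of the 10 with the length offset, and 588 to 2152 genes and 1 to 2 of the 10 without 1 library. OE_NC against si_NC (3215 genes, 3 of the 10) gave 1882 to 2833 genes and 2 to 3 of the 10 without 1 library. The nearest gene in pattern was kept for 2 of the 10 genes.

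Scaling shifted the split of higher and lower calls. Against 150 higher and 264 lower in si, 362 and 366 in OE, 700 and 671 for the difference and 1547 and 1668 between the controls, library totals gave 298 and 106, 159 and 653, 265 and 1269, and 2298 and 944 in that order, and shifted the median of the difference by −0.14. The length offset gave 175 and 918, 393 and 146, 1365 and 447, and 1037 and 2757; halved counts gave 332 and 534 in OE.

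Sign changes were small. With the 5 CPM filter, LDHA was −0.0046 and PFKP −0.0094 in OE, PFKP 0.0064 in si, and the differences −0.016 for PFKP and −0.056 for PGK1. With the length offset, ENO1 was 0.041 in the difference and −0.083 between the controls, PGK1 0.047 in OE, and TPI1 −0.0093 between the controls and −0.018 in si. Halved counts gave −0.00062 for PFKP in OE and −0.024 for PGK1 in the difference. Library totals gave LDHA −0.029 in OE, −0.050 in the difference and 0.021 in si; PFKP −0.033, −0.089 and 0.056; PGK1 −0.13 in the difference and 0.013 in si; and PKM −0.011 in OE and 0.024 between the controls. Limma on RPKM + 0.1 gave LDHA −0.028, −0.049 and 0.021, PFKP −0.033, −0.088 and 0.056, PGK1 −0.13 and 0.014, and PKM −0.0098 and 0.023 in the same places, and limma on RPKM + 1 gave the same rounded values except for PFKP, at −0.032, −0.087 and 0.055. Without 1 library, PFKP in OE ran from −0.027 to 0.063, LDHA in OE −0.019 to 0.049, ENO1 between controls −0.035 to 0.15, PGK1 in the difference −0.032 to 0.059, TPI1 in si −0.054 to 0.14, HK2 between controls −0.24 to 0.00077 and HK2 in si −0.18 to 0.070.

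Deviations of same-numbered libraries had correlations of −0.257 to 0.189, and those of libraries with other numbers −0.259 to 0.332. These values show no pairing by replicate number, but they cannot exclude a weak one. With a replicate block edgeR called 396, 803, 1247 and 3150 genes and 0, 1, 2 and 3 of the 10 in the 4 comparisons. Among other genes named in the text, PGM2 in si, TKT in OE, and MPC2 and PDK3 between the controls were not called with the block.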
